A study of Homo sapiens with 36 samples.

Results

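The amino acid transporters described here are 10 genes chosen by name: SLC3A2, SLC7A11, SLC7A5, SLC7A6, SLC7A1, SLC38A2, SLC38A1, SLC1A5, SLC1A4 and SLC6A9. They are 10 of the 36601 gene rows in the deposited count table, and all 10 passed the filter on low counts that left 14892 genes for testing. These transporters carry amino acids across the plasma membrane, some in exchange for other amino acids, some together with sodium and some by facilitated diffusion. Several work as pairs, in which a light chain of the SLC7 family does the transport and the heavy chain SLC3A2 brings it to the cell surface. In mammalian cells many of their genes are known targets of the transcription factor ATF4, which is translated when amino acids run short or when proteins misfold in the endoplasmic reticulum, and SLC7A11 is also a known target of NRF2, a regulator of the oxidative stress response.

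The study tags endogenous proteins of HEK293 cells, an established human line from embryonic kidney, with HaloTag, a protein tag that binds its ligands covalently. HyT36 is a hydrophobic HaloTag ligand, which the study uses to make the tagged protein misfold, and DMSO is the solvent without ligand. Bulk polyA RNA was sequenced in 4 groups of 3 libraries each: clone 5 with 25 µM HyT36, clone 5 with DMSO, clone 4 with 25 µM HyT36 and clone 4 with DMSO. The other 24 of the 36 samples in the series, single-cell and guide libraries, were not analysed here. All 12 bulk libraries come from tagged cells, each clone is a single clone, and the bulk libraries hold no untagged cells and no HyT36 in cells without a tag. The labels name neither the protein that is tagged in clone 5 or clone 4 nor which of the 2 exposures in the protocols, 2 or 12 h, the bulk cells had. The labels do not say whether the 3 libraries of a group were separate cultures, so p-values measure the spread between these libraries, which may be technical.

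Gene counts per library were 22853946 to 28635511. The table also counts guide features: one named for HDAC2 had 2 to 18 reads in clone 5 libraries and 2318 to 3504 in clone 4 libraries, and one named for IGF1R had 2623 to 3806 in clone 5 libraries and 5 to 13 in clone 4 libraries. One named for LRIG1 had 107 to 140 reads in clone 5 libraries and 0 in clone 4 libraries. SLC1A5 is the only one of the transporters with guide features in the table, and its 59 features had 0 reads in all 12 libraries. Of 5 genes associated with HEK293 cells, VIM stood at 151 to 233 CPM (reads per 1000000 gene reads, after TMM scaling of the libraries), PAX2 at 12.2 to 14.8 CPM and INA at 2.04 to 6.29 CPM, while the neurofilament genes NEFL and NEFM stayed at or below 0.126 CPM. In 6 libraries the summed level of 15 epithelial markers was 72.4 to 124 CPM, against 16.7 to 26.2 CPM in the other 6. KRT19, a keratin, stood at 32.2 to 69.9 CPM in the first 6 and at 0.0419 to 0.235 CPM in the others, KRT5 was at 0 in all 12, and GRHL2 was at 0 in the 6 with few such transcripts. The libraries with many epithelial transcripts are all 3 of clone 5 with DMSO, replicates 2 and 3 of clone 4 with HyT36 and replicate 1 of clone 4 with DMSO. In clone 5 this split therefore coincides with the ligand, and the ligand and the epithelial state cannot be told apart there.

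The sequences below were searched because the genes that moved with the ligand include known targets of ATF4 and NRF2. ATF4, with a C/EBP partner, binds the composite element CARE, whose core was searched as TGATGNAAN, and NRF2 binds the antioxidant response element ARE, whose core was searched as TGACNNNGC. Both strands were read from 250 bases before to 50 bases after each annotated gene start in the RefSeq promoter table (GRCh38.p14). 9 of the 10 transporters have 15 such windows between them, and SLC7A11 has none in that table. SLC3A2 and SLC1A5 have 3 windows each, and SLC1A4 and SLC38A1 have 2 each, at different annotated starts. The CARE core lay in 5 of the 15 windows, of 5 of the 9 genes, against 3.61% of all 35116 windows and 4.45% of all 27305 genes in the table. The ARE core lay in 5 of the 15 windows, of 5 of the 9 genes, against 13.3% of windows and 16.1% of genes. No match to one core overlapped a match to the other in these genes. A match is a description of letters and not a binding site.

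Shown first are the 5 CARE matches, 5′ to 3′ on the gene's strand with the 9 matching bases in capitals, since they set SLC3A2, the 1 of these 5 genes that was called with HyT36, beside 4 that were not. The SLC3A2 match lies at chr11:62881725-62881748, the SLC1A4 match at chr2:64989381-64989409, the SLC38A1 match at chr12:46266502-46266530, the SLC7A1 match at chr13:29595663-29595691 and the SLC1A5 match at chr19:46784893-46784921. SLC3A2 and SLC1A4 lie on the plus strand of the genome and the other 3 on the minus strand. In SLC3A2 and SLC1A4 the core reads on the strand opposite to the gene.
SLC3A2: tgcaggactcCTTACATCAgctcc
SLC1A4: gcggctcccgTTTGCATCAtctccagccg
SLC38A1: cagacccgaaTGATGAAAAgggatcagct
SLC7A1: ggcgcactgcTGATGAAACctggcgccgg
SLC1A5: aggaagtggcTGATGCAAGctgtccaggg

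The ARE core also lay in SLC7A1, SLC7A6 and SLC1A5, which were not called with HyT36 in either clone and whose matches are not printed. Of the ARE matches, those of the heavy chain SLC3A2 (chr11:62881652-62881680, plus strand) and of its partner SLC7A5 (chr16:87869491-87869519, minus strand) are shown, because these 2 genes rose in clone 4 and their products form one transporter.
SLC3A2: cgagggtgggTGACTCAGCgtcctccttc
SLC7A5: gcggggttccTGACGCAGCtgcgggcggc

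The gene with the largest response to the ligand, SLC38A2, held neither core in its window. Bases further than 50 after the start, such as introns, were not searched, so a core elsewhere in the gene would have been missed. The 250 bases before its start (chr12:46372774-46373023, minus strand) are 73.6% G or C and are printed for comparison with the matches above.
SLC38A2: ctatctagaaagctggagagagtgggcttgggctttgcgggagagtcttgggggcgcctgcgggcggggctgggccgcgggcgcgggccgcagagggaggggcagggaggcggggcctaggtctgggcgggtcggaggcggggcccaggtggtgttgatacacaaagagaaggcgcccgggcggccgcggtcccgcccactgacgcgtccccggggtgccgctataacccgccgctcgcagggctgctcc

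With HyT36, the sodium-coupled neutral amino acid transporter SLC38A2, the heavy chain SLC3A2 and the cystine carrier SLC7A11 rose in both clones, by 1.16- to 1.49-fold. The large neutral amino acid carrier SLC7A5 passed the test in clone 4, where it was 1.13-fold higher. In clone 5, 3 of the 10 transporters rose at an adjusted p under 0.05 in edgeR's quasi-likelihood test with Benjamini-Hochberg adjustment, and none fell, while 3.35% of all genes tested rose, 4.83% fell and 8.19% changed either way. In clone 4, 4 of 10 rose and none fell, while 2.21% of all genes rose, 3.36% fell and 5.57% changed either way. The median log2 fold change of the 10 genes was 0.07 in clone 5 and 0.17 in clone 4, beside -0.0045 and 0.0027 over all genes tested. In bulk RNA, fewer cells of a type and less RNA per cell cannot be told apart.

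SLC38A2 (chr12:46358188-46372773) encodes SNAT2, which imports small neutral amino acids such as alanine and glutamine with sodium and whose mRNA is known to rise when amino acids are withdrawn. In clone 5 it stood at 151.28, 163.52 and 153.9 CPM with HyT36, against 118.64, 124.44 and 128.6 CPM with DMSO. In clone 4 it stood at 276.21, 263.98 and 256.42 CPM with HyT36, against 194.02, 169.06 and 170.78 CPM with DMSO. All 4 groups were separate, and the clone 5 libraries with HyT36 lay below the clone 4 libraries with DMSO. The log2 fold change was 0.33 ± 0.05 (SE) in clone 5, 1.26-fold (edgeR adjusted p = 1.79e-05), and 0.58 ± 0.05 in clone 4, 1.49-fold (edgeR adjusted p = 2.43e-10).

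The clone 4 libraries were also compared within each epithelial state. There 1 of the arms is a single library, whose spread is taken from the other groups of that state, so the SEs within a state are borrowed. Among those with few epithelial transcripts it had 276.21 CPM in the 1 HyT36 library against a mean of 169.92 CPM in the 2 DMSO libraries, a log2 fold change of 0.70 ± 0.06. Among those with many it had a mean of 260.2 CPM in the 2 HyT36 libraries against 194.02 CPM in the 1 DMSO library, a log2 fold change of 0.43 ± 0.05. In clone 5, where the states follow the ligand, no such comparison can be made. A term for epithelial transcripts, which the model estimates from the clone 4 libraries alone and carries over to clone 5, gave 0.38 ± 0.06 there (edgeR adjusted p = 0.000294).

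SLC3A2 (chr11:62856109-62888860), also called CD98 heavy chain, carries no amino acid itself and takes SLC7A11, SLC7A5, SLC7A6 and other light chains to the plasma membrane. In clone 5 it stood at 348.61, 326.6 and 344.12 CPM with HyT36, against 274.11, 267.5 and 268.49 CPM with DMSO. In clone 4 it stood at 408.6, 428.6 and 416.45 CPM with HyT36, against 328.88, 347.13 and 323.99 CPM with DMSO. Within each clone every HyT36 library was above every DMSO library, and clone 5 with HyT36 overlapped clone 4 with DMSO. The log2 fold changes were 0.33 ± 0.04 in clone 5 (edgeR adjusted p = 5.23e-08) and 0.33 ± 0.04 in clone 4 (edgeR adjusted p = 3.36e-08), 1.26- and 1.25-fold. In clone 4 it was 0.28 ± 0.06 among libraries with few epithelial transcripts and 0.36 ± 0.05 among those with many, with 1 library in an arm of each comparison as above.

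SLC7A11 (chr4:138164097-138242349), or xCT, exchanges intracellular glutamate for cystine, which feeds glutathione synthesis. Its levels in clone 5 were 37.4, 40.6 and 42.3 CPM with HyT36, against 33.9, 34.9 and 34.4 CPM with DMSO. Its levels in clone 4 were 56.1, 51.8 and 52.7 CPM with HyT36, against 47.9, 45.1 and 45.0 CPM with DMSO. The groups did not overlap in either clone. The log2 fold change was 0.22 ± 0.06 in clone 5 (edgeR adjusted p = 0.00903) and 0.22 ± 0.05 in clone 4 (edgeR adjusted p = 0.0089), 1.17- and 1.16-fold.

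These SLC7A11 calls rested on few libraries. Without replicate 3 of clone 5 with HyT36 the clone 5 value was 0.19 (edgeR adjusted p = 0.0608), and with a term for epithelial transcripts it was 0.21 ± 0.08 (edgeR adjusted p = 0.136). Without replicate 1 of clone 4 with HyT36 the clone 4 value was 0.19 (edgeR adjusted p = 0.0847), and among libraries with many epithelial transcripts, 2 with HyT36 against 1 with DMSO and the spread borrowed as above, it was 0.13 ± 0.08 (edgeR adjusted p = 0.351).

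SLC7A5 (chr16:87830023-87869507), or LAT1, brings in leucine and other large neutral amino acids in exchange for intracellular ones. In clone 5 it stood at 534.01, 519.83 and 520.55 CPM with HyT36, against 484.61, 497.14 and 502.53 CPM with DMSO, a log2 fold change of 0.08 ± 0.04 (edgeR adjusted p = 0.145). In clone 4 it stood at 722.21, 736.67 and 724.04 CPM with HyT36, against 620.19, 669.39 and 642.57 CPM with DMSO, a log2 fold change of 0.18 ± 0.03 (edgeR adjusted p = 0.000867). Every HyT36 library was above every DMSO library in both clones, although edgeR did not call the clone 5 difference. DESeq2 called it, with 0.10 and an adjusted p of 0.027. In clone 4 the value was 0.14 ± 0.06 among libraries with few epithelial transcripts (1 with HyT36 against 2 with DMSO, edgeR adjusted p = 0.313) and 0.24 ± 0.04 among those with many (2 against 1, edgeR adjusted p = 0.000156), again with a borrowed spread.

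SLC7A6 (chr16:68264526-68301819), or y+LAT2, is the light chain of SLC3A2 that exchanges cationic amino acids for neutral ones and sodium. Its level was 39.3 ± 1.25 CPM in clone 5 with HyT36 and 37.6 ± 1.47 CPM with DMSO (SD, n = 3), and 53.2 ± 1.07 CPM in clone 4 with HyT36 and 53.4 ± 1.31 CPM with DMSO. The groups overlapped in both clones. The log2 fold changes were 0.06 ± 0.05 in clone 5 and -0.0044 ± 0.05 in clone 4, and neither passed the test (edgeR adjusted p = 0.575 and 0.979). Of the 3 light chains of SLC3A2 described here, SLC7A11 was thus called in both clones, SLC7A5 in clone 4 and SLC7A6 in neither.

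**Figure D1:**
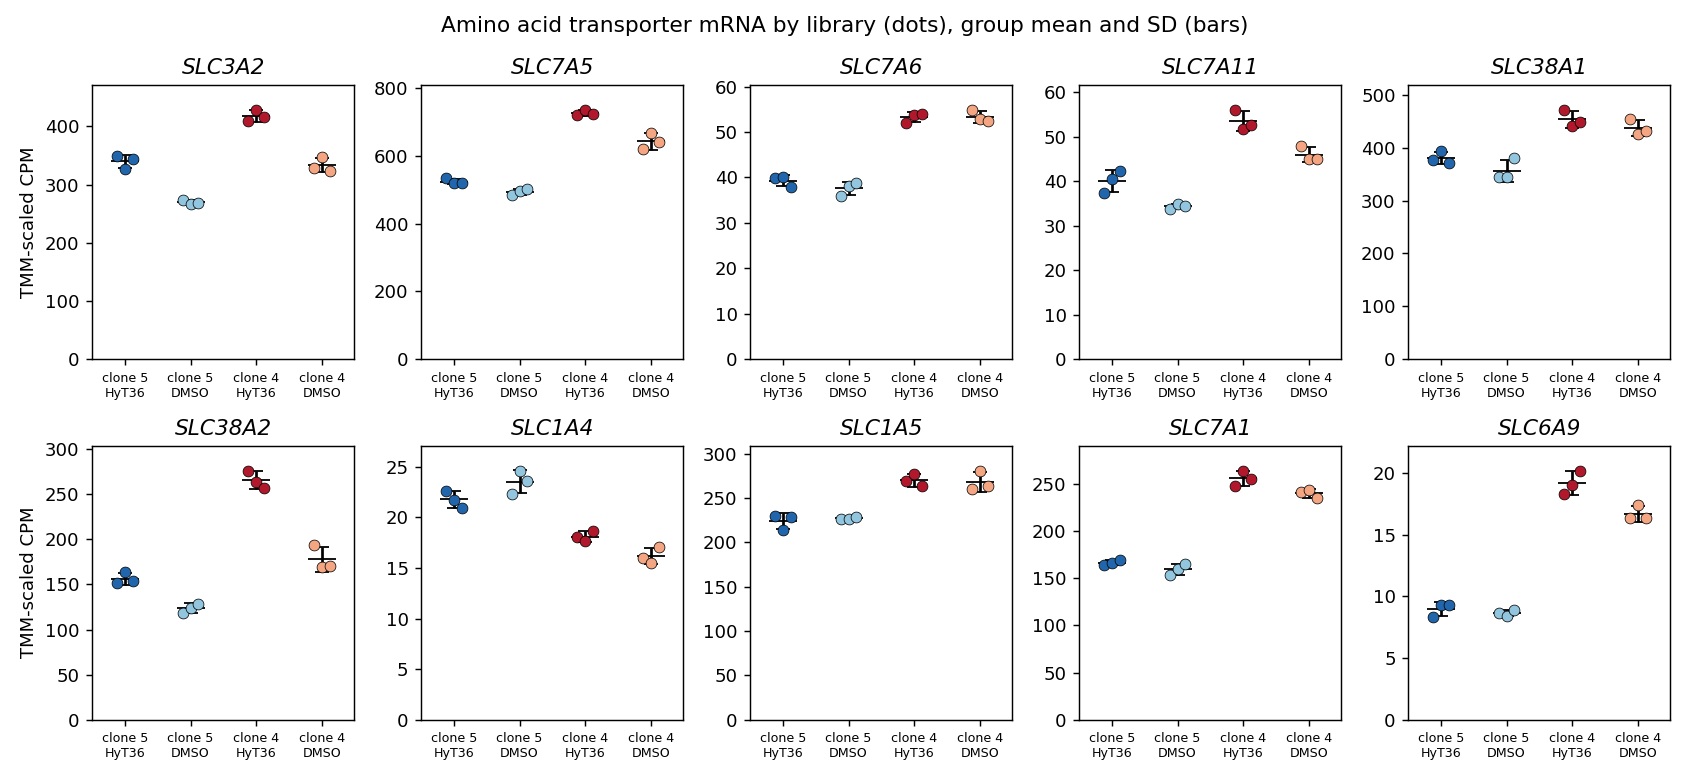
TMM-scaled CPM (vertical axes, from 0) of the 10 transporters in each of the 12 libraries, by clone and treatment. Dots are libraries and bars are group means with the SD. SLC38A2, SLC3A2, SLC7A11 and SLC7A5 stand above their DMSO libraries with HyT36 in both clones. Under the same treatment, clone 5 stands below clone 4 for every gene but SLC1A4.

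The other neutral amino acid carriers gave no call. SLC38A1 (chr12:46183063-46269043), or SNAT1, a close relative of SLC38A2, had 380.55 ± 11.6 CPM in clone 5 with HyT36 and 356.32 ± 20.4 CPM with DMSO, and 453.64 ± 15.9 CPM in clone 4 with HyT36 and 436.57 ± 15.0 CPM with DMSO (SD, n = 3). Its groups overlapped in both clones (log2 fold changes 0.09 ± 0.04 in clone 5 and 0.06 ± 0.04 in clone 4, edgeR adjusted p = 0.153 and 0.485). Without replicate 3 of clone 5 with DMSO its clone 5 value was 0.15 (edgeR adjusted p = 0.023). SLC1A5 (chr19:46774883-46788594), or ASCT2, a sodium-dependent exchanger known for glutamine uptake, had 224.06 ± 8.57 CPM in clone 5 with HyT36 and 227.25 ± 1.18 CPM with DMSO. In clone 4 it had 269.81 ± 7.11 CPM with HyT36 and 267.75 ± 11.4 CPM with DMSO, and its groups overlapped in both clones. Its log2 fold changes were -0.02 ± 0.04 in clone 5 and 0.01 ± 0.04 in clone 4 (edgeR adjusted p = 0.833 and 0.92).

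SLC1A4 (chr2:64988479-65023865), or ASCT1, which exchanges alanine, serine and cysteine, was one of the least abundant of the 10 by reads, with 378 to 669 per library. In clone 5 it stood at 22.6, 21.8 and 20.9 CPM with HyT36, against 22.3, 24.6 and 23.6 CPM with DMSO. It stood at 18.0, 17.6 and 18.6 CPM in clone 4 with HyT36, against 15.996, 15.5 and 17.1 CPM with DMSO. The clone 5 groups overlapped and the clone 4 groups did not, with values of opposite sign (log2 fold change -0.11 ± 0.07 in clone 5 and 0.16 ± 0.07 in clone 4), and neither passed the test (edgeR adjusted p = 0.404 and 0.224).

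SLC7A1 (chr13:29509414-29595688), or CAT1, imports arginine and lysine. It had 166.28 ± 2.67 CPM in clone 5 with HyT36 and 159.17 ± 5.62 CPM with DMSO, and 255.54 ± 7.95 CPM in clone 4 with HyT36 and 239.98 ± 4.58 CPM with DMSO (SD, n = 3). Its groups overlapped in clone 5 and were separate in clone 4, and neither log2 fold change passed the test (0.06 ± 0.04 in clone 5 and 0.09 ± 0.04 in clone 4, edgeR adjusted p = 0.39 and 0.163). SLC6A9 (chr1:43996483-44031462), or GLYT1, imports glycine with sodium and chloride and had 200 to 525 reads per library. It had 8.99 ± 0.533 CPM in clone 5 with HyT36 and 8.65 ± 0.253 CPM with DMSO, and 19.2 ± 0.972 CPM in clone 4 with HyT36 and 16.7 ± 0.643 CPM with DMSO. Again the groups overlapped in clone 5 and were separate in clone 4, with log2 fold changes of 0.05 ± 0.09 and 0.20 ± 0.08 (edgeR adjusted p = 0.801 and 0.139).

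Counted by overlap, 4 of the 10 transporters had every HyT36 library above every DMSO library in clone 5, against 11.4% of all genes tested. In clone 4 this held for 7 of 10, against 11.7% of all genes. No transporter had every HyT36 library below every DMSO library in either clone, against 13.8% of genes in clone 5 and 11.8% in clone 4. The SD of a transporter was 0.520 to 7.83% of its group mean, with a median of 3.52% over the 40 combinations of gene and group.

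**Figure D2:**
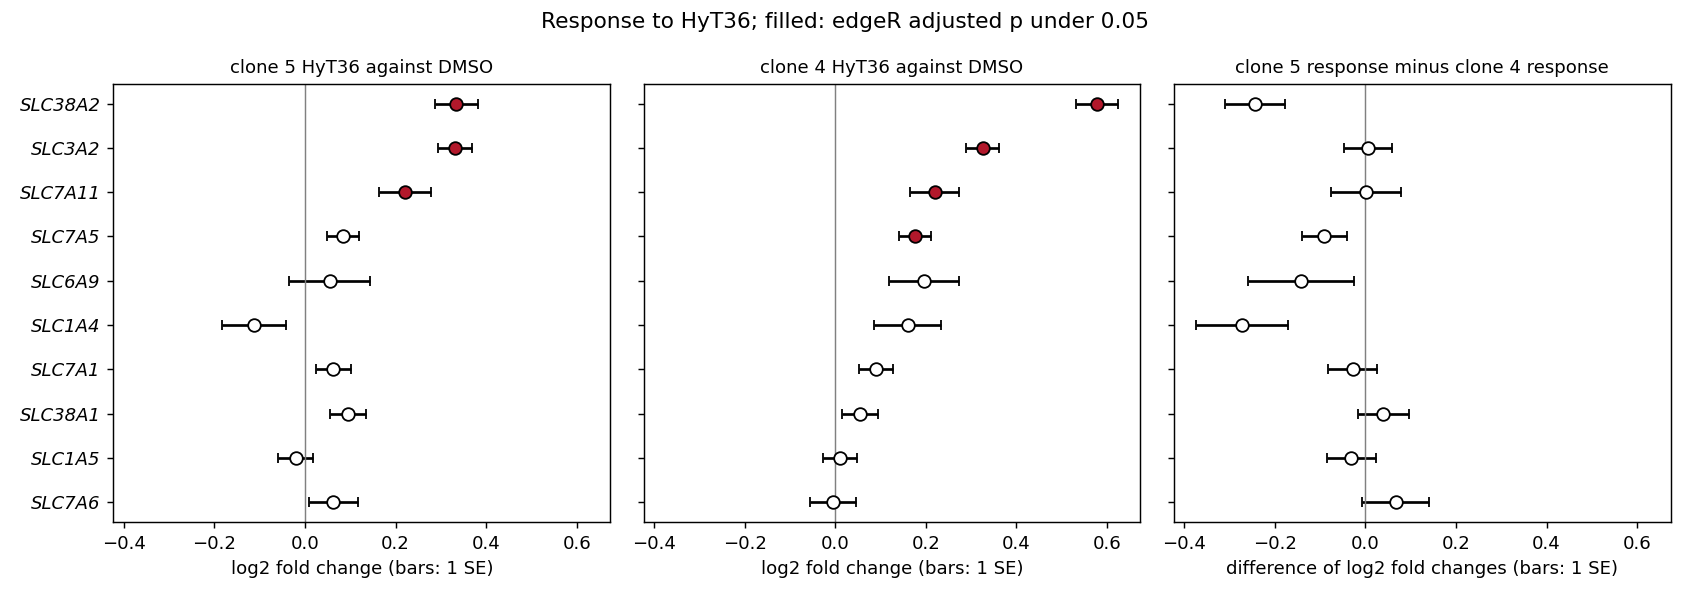
Log2 fold change of HyT36 over DMSO (horizontal axis) for each transporter in clone 5 (left) and clone 4 (middle), and the clone 5 response minus the clone 4 response (right), with bars of 1 SE and filled circles where the edgeR adjusted p was under 0.05. SLC38A2 lies at 0.33 in clone 5 and 0.58 in clone 4, SLC3A2 at 0.33 in both, and SLC7A6 and SLC1A5 lie near 0.

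The ratio of reads of paired genes within a library does not depend on the scaling between libraries. These pairs were chosen after the values were seen, and the smallest p that an exact permutation test of 3 against 3 allows is 0.1. Per 100 reads of its partner SLC7A5, SLC3A2 had 64.7 ± 1.71 reads in clone 5 with HyT36 and 54.6 ± 1.71 with DMSO, and 57.4 ± 0.807 in clone 4 with HyT36 and 51.8 ± 1.31 with DMSO (SD, n = 3, two-sided exact permutation p = 0.1 in each clone). This ratio, which concerns 1 of several light chains, was 1.19-fold (clone 5) and 1.11-fold (clone 4) higher with HyT36. Per 100 reads of SLC38A1, SLC38A2 had 41.1 ± 0.791 reads in clone 5 with HyT36 and 34.8 ± 1.16 with DMSO, and 58.5 ± 1.27 in clone 4 with HyT36 and 40.7 ± 1.78 with DMSO (exact permutation p = 0.1 in each clone). The libraries of the groups did not overlap in any of these 4 comparisons. Per 100 reads of SLC1A5, SLC1A4 had 9.73 ± 0.511 reads in clone 5 with HyT36 and 10.4 ± 0.506 with DMSO, and 6.71 ± 0.363 in clone 4 with HyT36 and 6.06 ± 0.486 with DMSO (exact permutation p = 0.3 and 0.2).

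The clone 5 response minus the clone 4 response was tested in the same model, and none of the 10 transporters passed, against 0.302% of all genes tested. DESeq2 and limma-voom also called 0. At an unadjusted p under 0.05 edgeR gave 2, SLC38A2 and SLC1A4, a threshold for which the share of all genes was not computed. For SLC38A2 the difference of log2 fold changes was -0.24 ± 0.07, with a 95% interval of -0.37 to -0.11 (edgeR unadjusted p = 0.000905, adjusted p = 0.153). It was called without the low-count filter (adjusted p = 0.0122) and, at -0.31, without replicate 1 of clone 4 with DMSO (adjusted p = 0.000624), the DMSO library of clone 4 with the highest SLC38A2 and with many epithelial transcripts. With a term for epithelial transcripts it was -0.18 ± 0.09 (adjusted p = 0.446), and over all alternatives the adjusted p ranged from 0.000624 to 0.446. For SLC1A4 the difference was -0.27 ± 0.10, with an interval of -0.47 to -0.07 (edgeR unadjusted p = 0.0105, adjusted p = 0.396). For SLC3A2 the difference was 0.01 ± 0.05, with an interval of -0.10 to 0.11, and for SLC7A11 it was 0.00 ± 0.08, with an interval of -0.15 to 0.15. For SLC7A5, called in clone 4 and not in clone 5, it was -0.09 ± 0.05 (edgeR adjusted p = 0.657), so the clones were not shown to differ in its response.

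The clones differed in all 10 transporters with DMSO, and 9 of the 10 were lower in clone 5. In edgeR's quasi-likelihood test with Benjamini-Hochberg adjustment, 9 of 10 fell and 1 rose in clone 5 against clone 4, while 28.2% of all genes tested were lower in clone 5, 27.3% were higher and 55.5% differed either way. The median log2 difference of the 10 was -0.40, against 0.0017 over all genes. The DMSO libraries are also the baseline of both ligand responses, so these comparisons share libraries. The labels give each clone as 1 clone, and differences between them cover everything in which the 2 clones differ.

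The glycine carrier SLC6A9 had the largest difference. It stood at 8.66, 8.39 and 8.89 CPM in clone 5 with DMSO, against 16.3, 17.5 and 16.4 CPM in clone 4 with DMSO, with no overlap. Its log2 difference was -0.95 ± 0.08, so it was 1.93-fold lower (edgeR adjusted p = 6.96e-13). The arginine carrier SLC7A1 stood at 153.55, 159.18 and 164.79 CPM in clone 5, against 241.46, 243.64 and 234.84 CPM in clone 4. Its log2 difference was -0.59 ± 0.04, or 1.51-fold lower (edgeR adjusted p = 5.49e-17).

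The other carriers that were lower in clone 5 differed by less. SLC38A2 had a log2 difference of -0.52 ± 0.05 (edgeR adjusted p = 7.21e-11), and SLC7A6 one of -0.51 ± 0.05 (edgeR adjusted p = 6.91e-11). SLC7A11 differed by -0.42 ± 0.06, SLC7A5 by -0.38 ± 0.04, SLC3A2 by -0.30 ± 0.04, SLC38A1 by -0.29 ± 0.04 and SLC1A5 by -0.24 ± 0.04, all past the threshold. SLC1A4 was the exception, with 23.5 ± 1.15 CPM in clone 5 and 16.2 ± 0.784 CPM in clone 4 (SD, n = 3), a log2 difference of 0.54 ± 0.07, or 1.45-fold higher (edgeR adjusted p = 2.87e-08). The heavy chain and its 3 light chains were thus all lower in clone 5, the glutamine exchanger SLC1A5 was lower, and its relative SLC1A4 was higher.

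With DMSO, every clone 5 library lay below every clone 4 library for these 9 genes, against 29.9% of all genes tested, and above for SLC1A4, against 29.8%. The same held with HyT36, where 9 of 10 lay below and SLC1A4 above, against 31.7 and 30.5% of all genes. Among libraries with many epithelial transcripts alone (3 of clone 5 and 1 of clone 4, with the lone library assumed to vary like the others), all 10 differences were called in the same direction. In that subset SLC6A9 had -0.91 ± 0.12, SLC38A2 -0.64 ± 0.05 and SLC1A4 0.56 ± 0.10.

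Ordered by group mean, SLC38A2, SLC7A11, SLC7A5, SLC38A1, SLC7A1 and SLC6A9 ran from clone 4 with HyT36, the highest, through clone 4 with DMSO and clone 5 with HyT36 to clone 5 with DMSO. For SLC38A2, SLC7A11 and SLC7A5 no neighbours in that order overlapped. For SLC38A1 the HyT36 and DMSO libraries overlapped within both clones, and for SLC7A1 and SLC6A9 within clone 5. For SLC3A2 clone 5 with HyT36 came second and overlapped clone 4 with DMSO, the next in order. SLC1A4 ran the other way between clones, with clone 5 with DMSO highest and clone 4 with DMSO lowest.

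The wider set of 44 other plasma membrane and lysosomal amino acid transporters, of which 23 were tested and 21 were too low, gave few calls with the ligand. In clone 5, 2 of 23 rose and none fell, while 3.35% of all genes tested rose and 4.83% fell: SLC43A1, a carrier of large neutral amino acids, with 19.9 ± 0.367 CPM with HyT36 and 16.9 ± 0.364 CPM with DMSO (log2 fold change 0.24 ± 0.07, edgeR adjusted p = 0.0336), and SLC38A6, with 5.60 ± 0.408 CPM with HyT36 and 4.12 ± 0.548 CPM with DMSO (0.44 ± 0.14, edgeR adjusted p = 0.0361). Leaving out replicate 1 or 2 of clone 5 with DMSO, or replicate 2 or 3 of clone 5 with HyT36, ended both calls. Leaving out replicate 3 with DMSO ended that of SLC43A1, DESeq2 gave an adjusted p of 0.0541 for SLC38A6, and a term for epithelial transcripts gave an adjusted p of 0.422 for SLC43A1 and 0.218 for SLC38A6. In clone 4 none of the 23 passed edgeR's test, while 5.57% of all genes tested passed either way, and DESeq2 and limma-voom called 0. At an unadjusted edgeR p under 0.05 there were 4 (3 higher and 1 lower with HyT36), a threshold for which the share of all genes was not computed. The median log2 fold changes were 0.07 in clone 5, as for the 10 genes above, and 0.04 in clone 4.

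With DMSO, 16 of the 23 were lower in clone 5, 2 were higher and 5 did not pass, while 28.2% of all genes tested were lower and 27.3% higher, with a median log2 difference of -0.41. SLC1A1, an importer of glutamate and cysteine, had 0.272 ± 0.172 CPM in clone 5 and 6.71 ± 0.646 CPM in clone 4 (log2 difference -4.62 ± 0.26, edgeR adjusted p = 6.51e-18). The cationic carriers SLC7A3 (46.6 ± 3.03 and 100.69 ± 2.03 CPM in clones 5 and 4, -1.11 ± 0.05, edgeR adjusted p = 3.59e-19) and SLC7A2 (78.6 ± 1.76 and 118.68 ± 4.62 CPM in clones 5 and 4, -0.59 ± 0.05, edgeR adjusted p = 1.71e-13) were lower in clone 5, as their relative SLC7A1 was. The aromatic amino acid carrier SLC16A10 had 65.9 ± 2.44 CPM in clone 5 and 93.4 ± 3.64 CPM in clone 4 (edgeR adjusted p = 8.87e-12). The 2 that were higher in clone 5, named after their values were seen, were SLC38A10 and SLC38A5 (log2 differences 0.43 and 0.42).

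**Figure D3:**
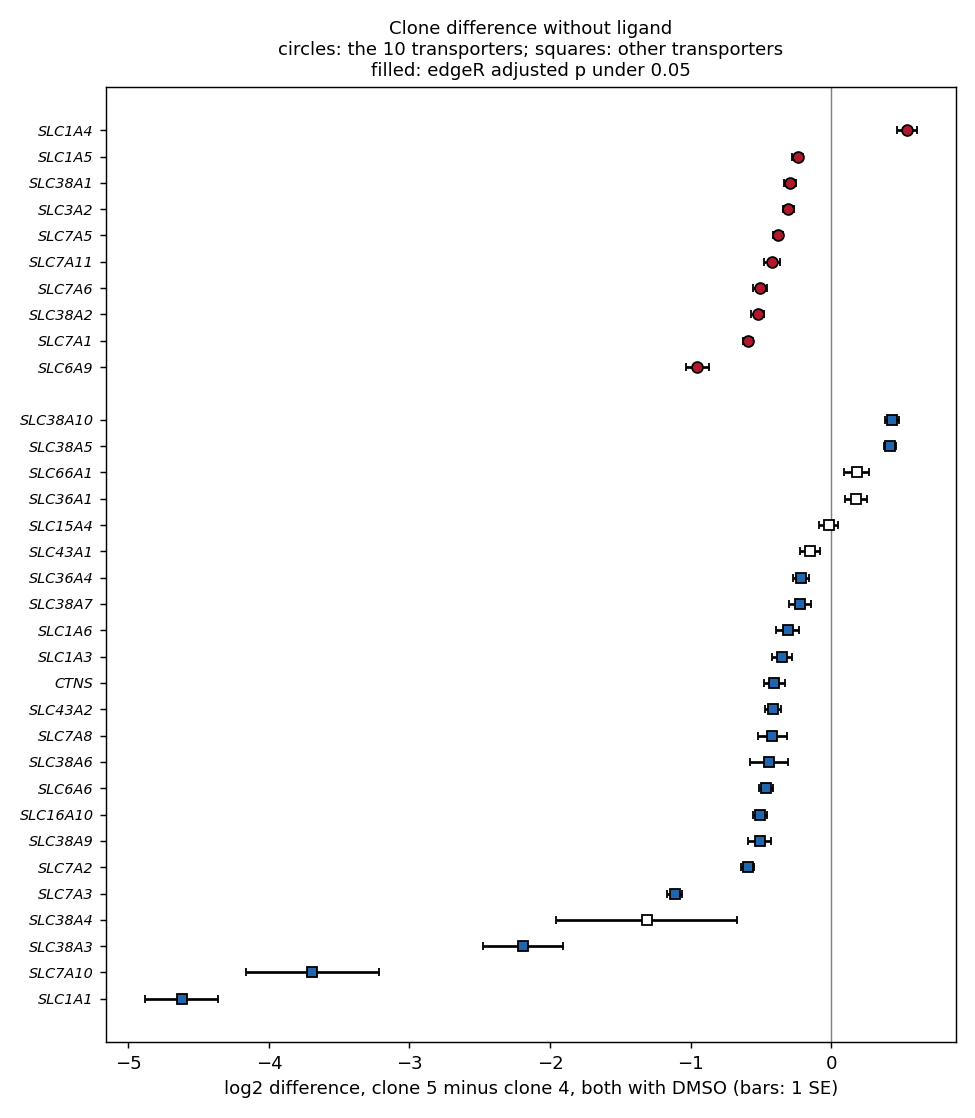
Log2 difference of clone 5 over clone 4 with DMSO (horizontal axis) for the 10 transporters (circles) and the 23 tested genes of the wider set (squares), with bars of 1 SE and filled symbols where the edgeR adjusted p was under 0.05. Of the 10, SLC6A9 is lowest at -0.95, the next 8 lie between -0.59 and -0.24, and SLC1A4 alone lies above 0, at 0.54, while SLC1A1 is lowest of the wider set at -4.62.

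Among 10 regulators of the amino acid and misfolded protein responses, 5 rose and none fell with HyT36 in clone 5, while 3.35% of all genes tested rose and 4.83% fell. DESeq2 called 4 and limma-voom 3. ATF3, a stress-induced transcription factor, had 24.03 ± 2.16 CPM with HyT36 and 15.1 ± 0.680 CPM with DMSO (0.67 ± 0.08, edgeR adjusted p = 3.46e-07) and kept its call under every alternative run. DDIT3, or CHOP, a transcription factor induced downstream of ATF4, had 2.58 ± 0.0989 CPM with HyT36 and 1.40 ± 0.194 CPM with DMSO (0.88 ± 0.23, edgeR adjusted p = 0.0123), and lost its call without replicate 1 (adjusted p = 0.0611) or 3 (0.0521) of clone 5 with DMSO, in limma-voom (0.0769) and with a term for epithelial transcripts (0.44, adjusted p = 0.514). ATF4 had 462.85 ± 28.0 CPM with HyT36 and 412.44 ± 23.7 CPM with DMSO (0.17 ± 0.05, edgeR adjusted p = 0.0393), and EIF2AK4, or GCN2, the kinase that senses uncharged tRNA, gave 0.14 ± 0.04 (edgeR adjusted p = 0.0149). The ATF4 call was lost without replicate 1 of clone 5 with HyT36 (adjusted p = 0.151), replicate 1 (0.181) or 3 (0.102) of clone 5 with DMSO, replicate 2 of clone 4 with HyT36 (0.0501) or replicate 1 of clone 4 with DMSO (0.0658), and with the term (0.212). The EIF2AK4 call was lost without replicate 2 of clone 5 with HyT36 (0.0748), replicate 1 (0.0778) or 2 (0.0813) of clone 5 with DMSO, and with the term (0.267). Leaving out replicate 1, 2 or 3 of clone 5 with DMSO left 1, 3 and 2 of the regulators called, leaving out replicate 2 of HyT36 in either clone left 3, and the term for epithelial transcripts left 2.

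In clone 4, 6 of the 10 regulators rose and none fell, while 2.21% of all genes tested rose and 3.36% fell. ATF3 had 32.1 ± 1.11 CPM with HyT36 and 18.7 ± 2.47 CPM with DMSO (log2 fold change 0.77 ± 0.08, edgeR adjusted p = 2.99e-09). DDIT3 had 4.71 ± 1.33 CPM with HyT36 and 1.42 ± 0.50 CPM with DMSO (1.72 ± 0.22, edgeR adjusted p = 1.09e-06). EIF2AK3, or PERK, the kinase that senses misfolded protein in the endoplasmic reticulum, gave 0.39 ± 0.09 (edgeR adjusted p = 0.00669), and CEBPG, a partner of ATF4, gave 0.18 ± 0.05 (edgeR adjusted p = 0.0108). The call of EIF2AK3 was lost without replicate 2 of clone 4 with DMSO (adjusted p = 0.0527) or replicate 3 with HyT36 (0.0745), and that of CEBPG without replicate 1 with DMSO (0.0553) or replicate 1 with HyT36 (0.157). Among clone 4 libraries with few epithelial transcripts EIF2AK3 gave 0.39 ± 0.15, and among those with many 0.28 ± 0.14. With 1 library in an arm and the spread borrowed as above, these values cannot decide whether its rise held within a state. No regulator passed the test of the difference between the responses of the clones in edgeR, DESeq2 or limma-voom. At an unadjusted edgeR p under 0.05 there were 4, all with a difference below 0. The share of all genes at that unadjusted threshold was not computed. Without replicate 1 of clone 4 with DMSO 1 regulator was called, and with the term for epithelial transcripts 1, each with a difference below 0. In the main test the clones were not shown to differ in the regulators' response.

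With DMSO, ATF4 mRNA was lower in clone 5, with 412.44 ± 23.7 CPM against 553.55 ± 33.7 CPM in clone 4 (log2 difference -0.42 ± 0.05, edgeR adjusted p = 1.81e-07). ATF3 was also lower in clone 5 (-0.31 ± 0.08, edgeR adjusted p = 0.00156), a call that was lost with a term for epithelial transcripts (-0.20, adjusted p = 0.0782) and among libraries with many of them (-0.12, 3 libraries against 1, adjusted p = 0.352). Without replicate 2 of clone 4 with DMSO the ATF3 difference was -0.20 and still past the threshold. EIF2AK4 (0.31 ± 0.04, edgeR adjusted p = 6.3e-09) and TRIB3, a pseudokinase that restrains ATF4 (0.14 ± 0.06, edgeR adjusted p = 0.0248), were higher. The TRIB3 call was lost without any 1 of 4 DMSO libraries, replicates 1 and 3 of clone 4 and replicates 2 and 3 of clone 5 (adjusted p = 0.0809 to 0.107).

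Of 12 genes of the NRF2 and cystine to glutathione group, which includes SLC7A11, 1 rose and 1 fell with HyT36 in clone 5. Over all genes tested, 3.35% rose, 4.83% fell and 8.19% changed either way there. SLC7A11 rose and SRXN1, a sulfiredoxin that repairs oxidised peroxiredoxins, fell (-0.17 ± 0.05, edgeR adjusted p = 0.0359). SRXN1 was not called by DESeq2 or limma-voom, with adjusted p of 0.0595 and 0.0758, nor with a term for epithelial transcripts (-0.21, edgeR adjusted p = 0.121). Its call was also lost without any 1 of 5 libraries (replicates 1 and 2 of clone 5 with HyT36, replicates 1 and 2 of clone 5 with DMSO and replicate 3 of clone 4 with HyT36). In clone 4, 2 of the 12 rose with HyT36 and none fell, while 5.57% of all genes changed either way. Beside SLC7A11 the gene that rose was GCLM, the modifier subunit of glutamate-cysteine ligase, with 39.7 ± 0.373 CPM with HyT36 and 33.9 ± 1.26 CPM with DMSO (log2 fold change 0.23 ± 0.06, edgeR adjusted p = 0.0181). The GCLM call was lost without replicate 2 of clone 4 with DMSO and without any 1 of the HyT36 libraries of clone 4 (adjusted p = 0.0508 to 0.0826). Among clone 4 libraries with few epithelial transcripts GCLM gave 0.23 ± 0.10, and among those with many 0.20 ± 0.09. Here too 1 library in an arm and a borrowed spread leave undecided whether the rise held within a state. The median log2 fold changes were 0.04 in clone 5 and 0.08 in clone 4. With DMSO, 3 of the 12 were higher and 6 lower in clone 5, while 55.5% of all genes differed either way. The NRF2 targets HMOX1 (4.48 ± 0.594 and 12.7 ± 0.135 CPM in clones 5 and 4, log2 difference -1.50 ± 0.11, edgeR adjusted p = 3.58e-15) and NQO1 (32.5 ± 0.910 and 58.5 ± 0.739 CPM, -0.85 ± 0.05, edgeR adjusted p = 2.69e-17) were lower, as SLC7A11 was, and GCLC, the catalytic partner of GCLM, was higher (78.7 ± 1.99 and 55.3 ± 1.66 CPM, 0.51 ± 0.05, edgeR adjusted p = 4.27e-12).

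Of the 15 epithelial markers 13 were tested. In clone 5, ESRP1, an epithelial splicing factor, was the only one edgeR called, and it fell (-1.84 ± 0.43, edgeR adjusted p = 0.0147), while 4.83% of all genes tested fell. DESeq2 called 3 and limma-voom 2. KRT19 had 0.128 ± 0.0852 CPM with HyT36 and 41.4 ± 9.97 CPM with DMSO, but edgeR did not call it. Of the 13, 12 had a log2 fold change below 0, with a median of -1.84, while 48.8% of all genes tested lay above 0. The ESRP1 call was lost in limma-voom (adjusted p = 0.0626), with the term (-0.75, adjusted p = 0.27) and without any 1 of 5 clone 5 libraries, all but replicate 2 with DMSO (adjusted p = 0.0623 to 0.099). In clone 4 none was called with HyT36 by edgeR, DESeq2 or limma-voom, and the median log2 fold change was 0.21. There 1 marker, lower with HyT36, had an unadjusted edgeR p under 0.05, a threshold for which the share of all genes was not computed. With DMSO, the claudin CLDN7 was higher in clone 5 than in clone 4 (1.98 ± 0.54, edgeR adjusted p = 0.0133). SPINT1, a protease inhibitor, was higher (0.39 ± 0.13, edgeR adjusted p = 0.0187) and ESRP1 lower (-0.87 ± 0.34, edgeR adjusted p = 0.0403), and both calls were lost when single libraries were left out. Without replicate 2 or 3 of the DMSO libraries of either clone SPINT1 had an adjusted p of 0.0615 to 0.0799, and with the term 0.14 (adjusted p = 0.237). Without replicate 1 of clone 4 with DMSO ESRP1 was -0.38 (adjusted p = 0.233), and without replicate 2 or 3 of clone 5 with DMSO or any 1 of clone 5 with HyT36 its adjusted p was 0.072 to 0.147. Their part in the transporter results was not tested beyond the values given above within each epithelial state and with the added term.

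SLC38A2 had the largest mean size of response over both clones, and the 5 genes nearest to its profile were sought by the root mean square difference of log2 CPM, each gene centred on its own mean over the 12 libraries. They were the zinc exporter SLC30A1 at 0.0631, the heat shock gene HSPA1A at 0.0871, the transcription factors KLF6 at 0.0892 and MXD1 at 0.125, and HSPA1B at 0.144. The log2 fold changes with HyT36 were 0.40 in clone 5 and 0.60 in clone 4 for SLC30A1, 0.37 and 0.64 for HSPA1A, and 0.28 and 0.40 for KLF6. For MXD1 they were 0.24 and 0.42, and for HSPA1B 0.52 and 0.81. HSPA1A and HSPA1B are near-identical copies, so how reads were split between them is uncertain. The likeness is a description over libraries that share clone, treatment and scaling.

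**Figure D4:**
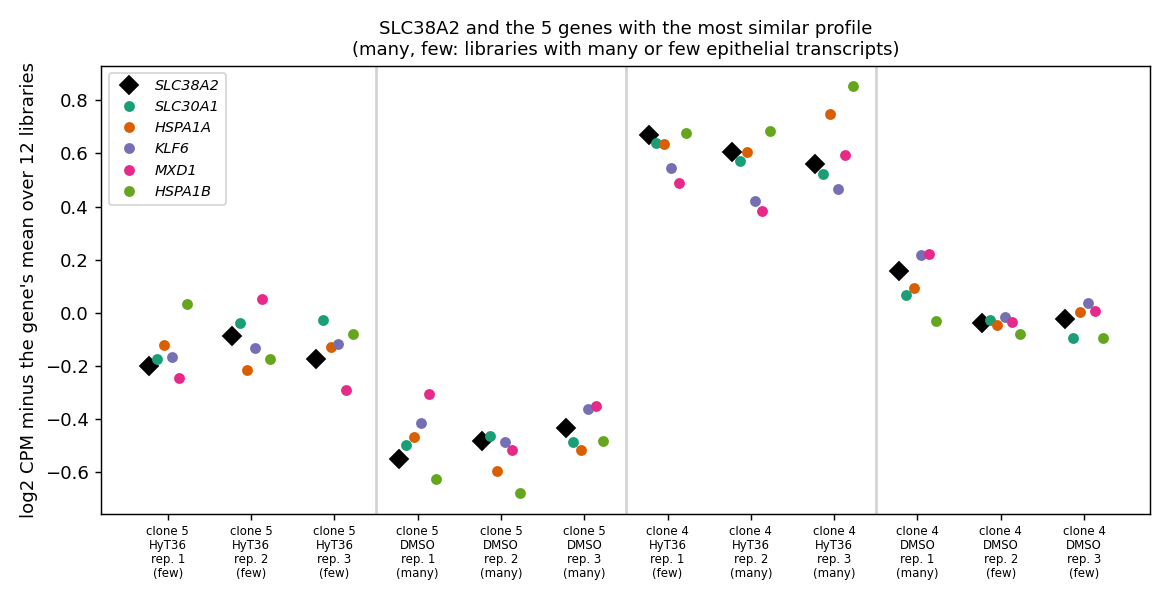
Log2 CPM minus the gene's own mean over the 12 libraries (vertical axis) for SLC38A2 and the 5 genes nearest to it, library by library, with libraries marked as having many or few epithelial transcripts. All 6 genes are highest in clone 4 with HyT36 and lowest in clone 5 with DMSO.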

How the data were processed

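Bulk polyA RNA libraries of HEK293 clones were made with a NEBNext Ultra II kit at a sequencing service, per the labels' protocols. The authors deposited 1 table of raw read counts, not normalized, with 36601 gene rows, 22344 guide features and 4 summary rows. Per the submitters' processing notes the build was GRCh38, and Cell Ranger 7 is listed without saying whether it served bulk RNA. Neither aligner nor annotation nor strandedness of the counting is stated, so reads of overlapping or antisense genes cannot be told apart. Gene rows held 82.4 to 83.9% of all counts in a library. Unmapped, multimapping, featureless, ambiguous and guide reads entered neither library sizes nor tests, and at these depths 1 CPM stands for more than 20 reads.

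Counts were tested with edgeR 4.0.16 (R 4.3.3) after filterByExpr by group and TMM scaling. A single robust quasi-likelihood model with 1 mean per group was fitted over the 12 libraries with no covariate. Two-sided tests were adjusted by Benjamini-Hochberg over the 14892 genes, with a threshold of 0.05. SEs are approximate, from each log2 fold change and its F value, and 95% intervals are 1.96 SE either way. CPM values are TMM-scaled, carry no correction for gene length and are not compared between genes. DESeq2 1.42.0, limma-voom (limma 3.58.1), other filters and scalings, single libraries left out, a replicate block and the epithelial state were run as alternatives. The state was set by the summed CPM of 15 markers, at the widest gap on a log scale, and its term in the model is that split. Chi-square per degree of freedom between replicates was 1.93 to 8.43, so none looked like a repeated library.

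The members and the gene lists were chosen with earlier results of these data known. All 10 members are described. Of each other list up to 4 genes with the smallest p past the threshold are named per comparison, and the 5 genes most like the member with the largest response are named among those whose mean log2 CPM was 1 or more. Coordinates and sequences are from RefSeq on GRCh38.p14, matched by symbol. On simulated counts for a clone 4 response over 14600 genes, 52% of genes changed 1.25-fold and 74% of genes changed 1.5-fold were recovered, with 5 false calls among 155.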

Additional observations from a re-analysis of the deposited data

How the results depend on the processing

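The rises of SLC3A2 and SLC38A2 with HyT36 and all 10 differences between clones kept direction and call under every alternative that gave a value. The log2 fold change of SLC38A2 ranged from 0.30 to 0.38 in clone 5 and from 0.43 to 0.70 in clone 4, and that of SLC3A2 from 0.32 to 0.36 and from 0.28 to 0.36. The number of transporters called ranged from 2 to 4 in clone 5 and from 3 to 4 in clone 4. The alternatives were extended to the genes of other lists after the data were seen.

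Over all genes tested, 1219 were called in clone 5, against 776 with a term for epithelial transcripts and 755 to 1618 with a library left out (755 without replicate 1 of DMSO). In clone 4, 830 were called, against 287 among libraries with few epithelial transcripts and 409 to 851 with a library left out (545, 532 and 409 without replicate 1, 2 or 3 of HyT36). For the difference of responses 45 genes were called, against 12 by limma-voom, 169 without the low-count filter, 244 with the epithelial term and 25 to 140 with a library left out (25 and 29 without replicate 1 or 2 of clone 5 with HyT36, 27 without replicate 2 and 140 without DMSO replicate 1 of clone 4). Transporters called in that comparison were 0, 1 without the filter and 0 to 1 with a library left out, the 1 being SLC38A2.

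Changes of sign arose in values near 0, and the cause was not tested. The SLC7A11 difference of responses was -0.00096 by limma-voom, -0.013 with the epithelial term and -0.033 to 0.053 with a library left out. For SLC7A1 it was 0.024 with the term and -0.050 to 0.011 with a library left out, and for SLC3A2 -0.021 to 0.033. In clone 4, SLC7A6 was 0.0045 without the filter and -0.014 to 0.016 with a library left out, SLC1A5 was -0.016 among libraries with few epithelial transcripts and -0.010 to 0.051 with a library left out, and SLC38A1 was -0.026 among those with many. In clone 5, SLC1A5 was -0.032 to 0.011 with a library left out.

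Groups share replicate numbers, but same-numbered HyT36 and DMSO libraries did not deviate together (correlation -0.06 to -0.03 in clone 5 and -0.48 to -0.22 in clone 4), so the numbers were not taken as pairs. With a replicate block 1136 genes were called in clone 5, 758 in clone 4, 60 for the difference of responses and 8093 between clones, and 3, 4, 1 and 10 transporters. The 1 was SLC38A2 (-0.24, edgeR adjusted p = 0.048). In the other lists the block ended the calls of SLC38A6 (0.0547), SPINT1 (0.0526) and ESRP1 (0.0971 for the ligand and 0.0689 between clones). The ligand response of clone 5 could not be had within an epithelial state, nor the difference of responses with each clone fitted alone. SLC6A9 and SLC1A4 had the fewest reads of the 10 transporters, and whether depth limited their calls was not tested.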
